A study of Schizosaccharomyces pombe with 144 samples.

Results

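Fission yeast cells in the meiotic divisions, sampled at 6 h of a meiotic time course, were compared with growing cells in the vegetative cycle, called mitosis here. The comparison covered all 5157 genes of the deposited expression table, and used 2 of the 144 samples of the series, 1 library of total RNA a side. The study mapped heterochromatin marks through meiosis, and the RNA libraries served to check that the culture moved through meiosis in step. Both libraries came from the diploid strain SPB2819, which is h-/h- and carries ade6-M210 over ade6-M216. Both copies of pat1 are disrupted (pat1::NatR) and an analog-sensitive copy, pat1-as(L95A)::HygR, is present on both homologues. The strain also has cen2(D107)::KanR-ura4+-lacO with his7+::lacI-GFP, which marks a centromere with a fluorescent spot, and lys1::MatPc-Bleo, which supplies a gene of the opposite mating type. The clr4 gene is wild type in both. The mitosis library is labelled as asynchronous, and the other as meiosis 6h. The medium of the meiotic culture and the inhibitor used on it are not stated in the labels, so a difference between both libraries can belong to meiosis, to the medium or to the arrest before it, and these cannot be told apart.

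In growing fission yeast the Pat1 kinase holds meiosis back by phosphorylating the RNA-binding protein Mei2, and loss of Pat1 activity starts meiosis even in cells of the wrong mating type. Premeiotic replication and recombination come first, then the forkhead factor Mei4 switches on the middle genes, whose products drive both nuclear divisions and build the forespore membrane around each nucleus. The spore wall is laid down inside that membrane, and the ascus wall is digested at the end. Growing cells divide by another route, with a medial septum that is cut by glucanases, and spend much of their transcription on ribosomes.

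Values are RPKM, reads per length of gene and per depth of library. A change is the difference of log2(RPKM + 1), 6 h minus mitosis, and a gene was called higher or lower where the change was at least 2 (4-fold) and at least 5 RPKM was reached in either library. With 1 library a side there is no replicate spread, no test and no p-value, so a call describes the size of a difference between these libraries. The estimated depth was 20731236 reads in mitosis and 14996276 at 6 h. For a gene of the median exonic length, 1681.5 bases, 5 RPKM stands for 174 reads in mitosis (exact Poisson 95% interval 149 to 202) and 126 reads at 6 h (105 to 150), an interval for counting error only. The median change over all genes was -0.23, so each result was also read after rescaling every library by its median ratio to the geometric mean of the 10 libraries of the course, which moved that median to -0.02. In these bulk libraries, fewer cells that express a gene and less of its RNA per cell cannot be told apart.

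Of the 5157 genes, 481 were higher at 6 h (9.33%) and 439 were lower (8.51%), 17.8% in all. After rescaling 588 were higher (11.4%) and 316 lower (6.13%), 17.5% in all, so the higher genes made up 52.3% of the calls as deposited and 65.0% after rescaling. All 481 higher genes stayed higher after rescaling, and 315 of the 439 lower genes stayed lower. The rises reached much further than the falls. At 64-fold or more there were 80 higher genes and 0 lower genes, and at 16-fold or more 162 against 13. Among those of 16-fold or more, 71 genes went from under 5 RPKM in mitosis to 100 RPKM or more at 6 h, and 2 genes did the reverse. Close to the limit, 30 higher genes had a change of 2 to 2.1 and 36 genes lay just outside at 1.9 to 2, while for falls 73 lay just inside and 63 just outside.

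**Figure D1:**
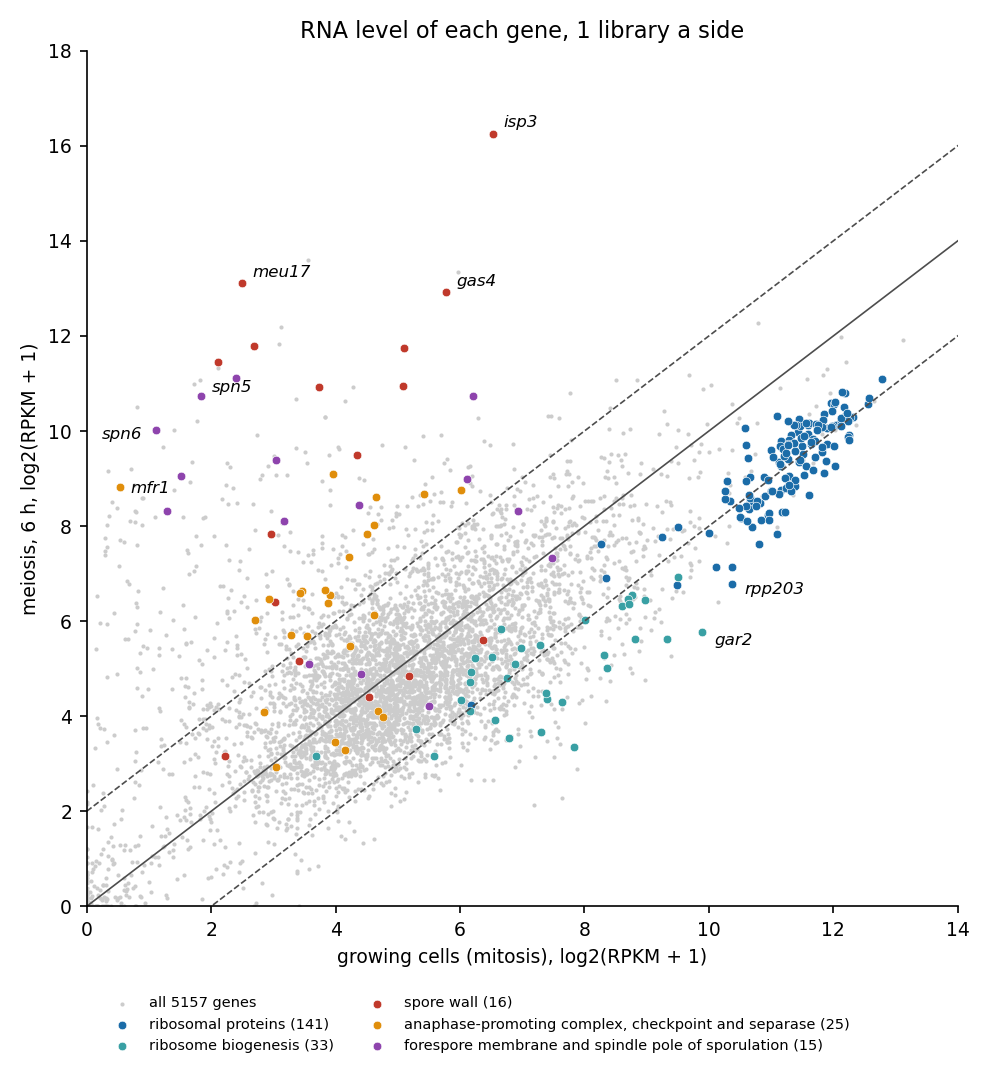
Level of each of the 5157 genes in mitosis (horizontal axis) and at 6 h (vertical axis), both as log2(RPKM + 1), with 5 gene lists in colour, the line of equal level (solid) and the 4-fold limits (dashed). Spore wall and forespore genes rise from low levels far above the upper limit, while the 141 ribosomal protein genes, the most abundant group in mitosis, lie along the lower limit.

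The makeup of the RNA differed as well. The spore surface protein gene isp3 alone held 11.6% of the summed RPKM at 6 h, and the 10 highest genes held 20.6%, against 7.12% for the 10 highest genes of mitosis. The 10 highest genes in mitosis were fba1 and gpm1 of glycolysis, 7 genes of ribosomal proteins and the ribosome-bound protein gene cpc2. At 6 h isp3 was followed by meu7 (an alpha-amylase, 12445 RPKM), the metallothionein gene zym1 (10334 RPKM) and meu17 (a glucosidase, 8844 RPKM). The list of 16 spore wall genes went from 0.0504% to 16.3% of the summed RPKM, and the 141 ribosomal protein genes from 46.9% to 15.9%. Because RPKM is a share of the library, the rise of a few abundant genes lowers the value of others, and the rescaled counts are given beside the deposited ones for that reason.

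Promoters of 6 genes are shown because they carry the sequence elements that differ most in frequency between the higher and the lower genes. The sequences are the 250 bases before the annotated gene start, from the RefSeq assembly ASM294v3, on the gene's own strand. They were taken from the genes named in the text whose window holds no other protein-coding transcript, by size of change. Capitals mark the forkhead element GTAAACA, or its reverse complement TGTTTAC, in isp3 (I:95540-95789, plus strand), the gluconeogenic gene fbp1 (II:199370-199619, minus strand), the poly(A) polymerase gene cid11 (II:509163-509412, plus strand) and the ascus glucanase gene agn2 (II:934104-934353, minus strand). The windows of isp3, fbp1 and agn2 overlap annotated long noncoding RNAs, and that of cid11 overlaps no other gene.
isp3 promoter: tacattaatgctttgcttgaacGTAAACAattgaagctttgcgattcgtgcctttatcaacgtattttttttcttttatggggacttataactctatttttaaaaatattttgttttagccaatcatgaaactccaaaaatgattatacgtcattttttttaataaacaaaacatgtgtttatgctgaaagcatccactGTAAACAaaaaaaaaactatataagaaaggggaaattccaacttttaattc
fbp1 promoter: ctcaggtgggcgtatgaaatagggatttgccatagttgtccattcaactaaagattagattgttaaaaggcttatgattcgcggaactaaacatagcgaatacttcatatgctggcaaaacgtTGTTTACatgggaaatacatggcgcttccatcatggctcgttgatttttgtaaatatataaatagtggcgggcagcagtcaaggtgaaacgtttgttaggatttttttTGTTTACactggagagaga
cid11 promoter: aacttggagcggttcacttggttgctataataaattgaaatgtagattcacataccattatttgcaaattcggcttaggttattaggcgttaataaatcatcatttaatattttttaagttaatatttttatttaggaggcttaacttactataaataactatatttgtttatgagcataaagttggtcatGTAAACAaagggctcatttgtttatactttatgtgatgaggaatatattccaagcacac
agn2 promoter: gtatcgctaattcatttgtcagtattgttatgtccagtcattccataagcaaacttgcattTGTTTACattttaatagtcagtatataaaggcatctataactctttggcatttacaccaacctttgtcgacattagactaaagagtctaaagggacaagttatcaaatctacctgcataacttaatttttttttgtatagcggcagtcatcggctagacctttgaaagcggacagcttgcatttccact
Capitals mark the Homol-D box CAGTCAC, or GTGACTG, in the ribosome assembly GTPase gene nog1 (II:1239209-1239458, minus strand) and the ribosomal protein gene rpl2301 (I:3180004-3180253, minus strand). The window of nog1, a lower gene, holds the forkhead element TGTTTAC as well, left in lower case, as are other elements counted further on.
nog1 promoter: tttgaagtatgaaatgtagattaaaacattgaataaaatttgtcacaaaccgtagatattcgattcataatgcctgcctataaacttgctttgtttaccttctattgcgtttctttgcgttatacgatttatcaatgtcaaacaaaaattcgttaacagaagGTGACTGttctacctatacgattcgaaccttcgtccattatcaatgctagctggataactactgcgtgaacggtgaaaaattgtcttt
rpl2301 promoter: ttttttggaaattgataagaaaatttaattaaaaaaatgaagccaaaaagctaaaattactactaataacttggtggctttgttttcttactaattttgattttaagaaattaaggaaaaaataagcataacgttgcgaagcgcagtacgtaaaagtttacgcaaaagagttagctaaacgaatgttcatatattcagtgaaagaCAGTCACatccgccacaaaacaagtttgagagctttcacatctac
In isp3 the copies of GTAAACA began 228 and 51 bases before the gene start. In rpl2301 the Homol-D box began 45 bases before it.

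These elements were counted on both strands in the 4495 promoters of protein-coding genes with an annotated 5′ end, which cover 329 of the higher and 402 of the lower genes. GTAAACA is the core bound by forkhead factors such as Mei4. It lay in 35.3% of the promoters of higher genes (116 of 329), in 11.4% of those of lower genes and in 14.5% of all. Within the lower genes it lay in 21.4% of 56 ribosomal protein promoters and in 9.83% of the 346 others. Over all 135 ribosomal protein promoters GTAAACA lay in 22.2%, above the 14.5% of all genes. Of the 80 genes 64-fold or more higher only 34 have a promoter among those read, and it lay in 16 of these (47.1%). Read the other way, 17.8% of the 653 genes with GTAAACA were higher, against 5.54% of the 3842 without it, with a median change of 0.15 against -0.38. The related form GTAAATA lay in 20.1% of the promoters of higher genes and 14.7% of all, but in 11.8% of the 34 of genes 64-fold or more higher. In all, 213 of the 329 higher genes with a promoter had no GTAAACA in this window.

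The Homol-D box CAGTCAC, an element of ribosomal protein genes in fission yeast, is counted next. It lay in 17.2% of the promoters of lower genes, 0.912% of those of higher genes and 4.83% of all. Of the 135 ribosomal protein promoters 91.1% held it, and they were 50 of the 69 lower genes with the box. Outside them it lay in 5.49% of 346 lower genes and 2.16% of 4360 genes. The other elements differed less between higher genes, lower genes and all genes. The MBF box ACGCGT of S phase genes lay in 2.43%, 3.73% and 2.47%, the stress element TGACGT in 6.69%, 5.47% and 5.32%, and the Ste11 element TTCTTTG in 7.6%, 9.2% and 7.56%. A match of letters is a description of the sequence and was not tested as a binding site.

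**Figure D2:**
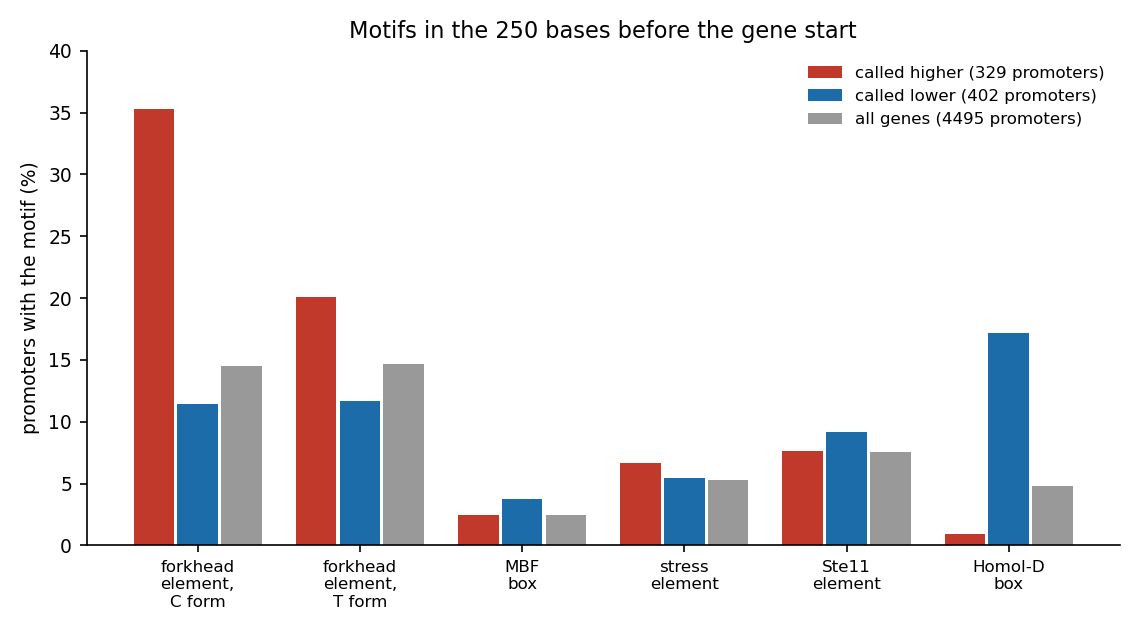
Percentage of promoters (vertical axis) that hold each of 6 sequence elements on either strand in the 250 bases before the gene start, for genes higher at 6 h (329 promoters), lower at 6 h (402) and all genes (4495). GTAAACA, the C form of the forkhead element, stands at 35.3% in the higher genes, and the Homol-D box at 17.2% in the lower genes.

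The stage of both libraries was read from marker genes. The edited gene pat1 read 13.0 RPKM in mitosis and 28.4 RPKM at 6 h. The genotype holds no intact wild-type copy, and a value per gene does not show which of the edited copies gave the reads. All 9 markers of the meiotic divisions were higher at 6 h, with a sum of 35.3 RPKM in mitosis and 10440.9 RPKM at 6 h, the highest sum of the 10 libraries. Of 5 markers of growing cells with septa 4 were lower, and the sum of the 5 went from 563 to 84.6 RPKM. The related septum gene adg2, not among these markers, went the other way, from 174 to 721 RPKM. The sum therefore describes the chosen markers and not all septum genes. Markers of mating and early meiosis summed to 40.5 RPKM in mitosis, 10472 RPKM at 0 h and 715 RPKM at 6 h. Most of the sum at 0 h and at 6 h was the pheromone gene mfm1, at 9074 and 617 RPKM. Of these 6 markers 3 were higher at 6 h than in mitosis and 0 lower. The 6 h sum lies between those of mitosis and 0 h, and which cells hold this RNA was not tested. The spore gene isp3 read 91.2 RPKM in mitosis, 78239.8 RPKM at 6 h and 134840 RPKM at 8 h.

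**Figure D3:**
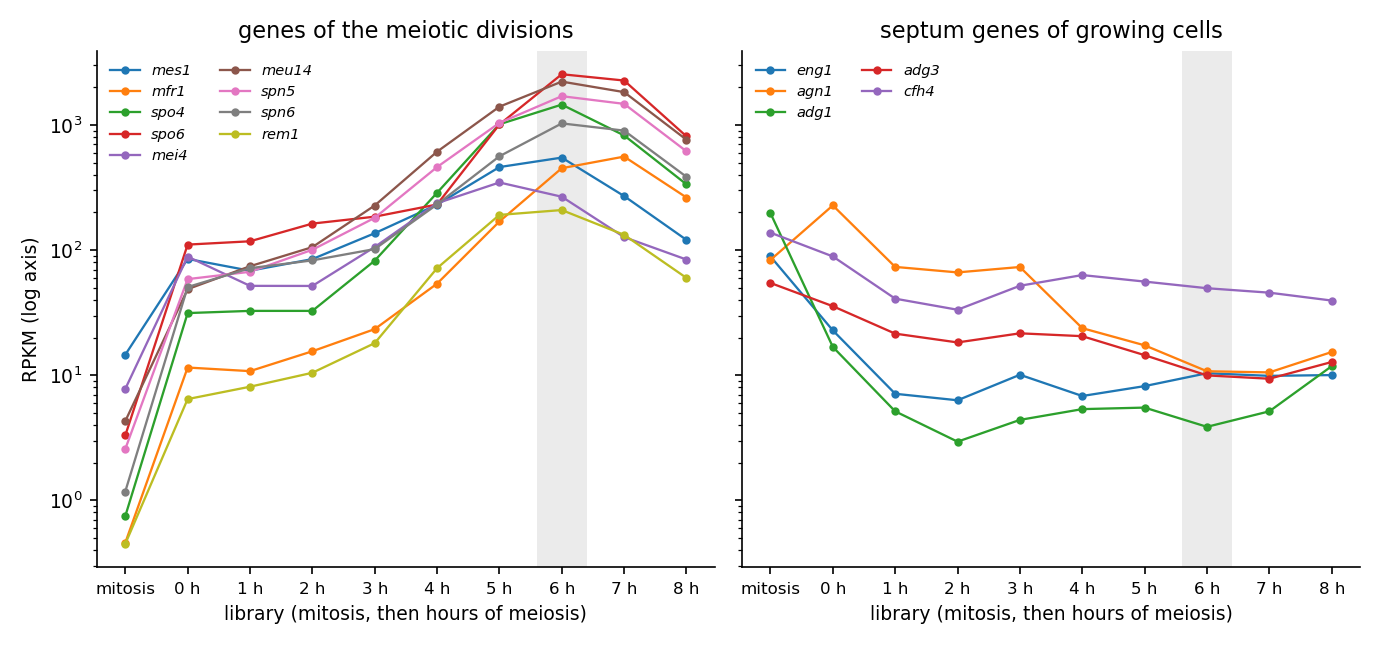
RPKM (log axis) of the 9 division markers (left) and the 5 septum markers (right) in mitosis and at 0 h to 8 h of meiosis, 1 library a point, with 6 h shaded. At 6 h the division markers sum to 10440.9 RPKM, their highest sum in the course, and the septum markers sum to 84.6 RPKM. The septum gene adg2, higher at 6 h, is not among the markers shown.

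Of 12 transcription factors of meiosis 7 rose and 0 fell, with a list median of 2.81. Mei4, which drives the middle genes, went from 7.77 RPKM to 267 RPKM, a change of 4.94. The gene of the meiotic factor Cuf2, a relative of the copper regulator Cuf1, went from 0.271 RPKM to 573 RPKM, a change of 8.82, the largest of the list. Genes of the bZIP factors Atf21 and Atf31 rose from 0.717 to 272 RPKM and from 2.74 to 290.2 RPKM. The RNA-binding protein gene mei2, kept on this list as a master switch of meiosis, rose from 14.1 to 346 RPKM. The starvation factor gene ste11, which acts before meiosis, read 9.01 and 26.7 RPKM, and mei3, which encodes the natural inhibitor of Pat1, read 0.103 and 0.806 RPKM, both short of a call. The forkhead factor genes of the growing cell were not called either, with fkh2 at 20.2 and 46.1 RPKM and sep1 at 23.3 and 14.9 RPKM.

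Among the kinases and cyclins that turn the division cycle, the meiotic forms rose furthest. Of 17 genes 6 rose and 0 fell, with a median of 1.15. The kinase gene spo4, needed for the second meiotic division and its spindle, went from 0.747 RPKM to 1457 RPKM, a change of 9.70. Its partner spo6 went from 3.30 RPKM to 2549 RPKM, a change of 9.21. The meiotic cyclin genes rem1 (0.449 to 209 RPKM) and crs1 (2.08 to 23.5 RPKM) rose by 7.18 and 2.99. The main mitotic cyclin gene cdc13 also rose, from 107 to 446 RPKM, just past the limit with a change of 2.06. The Cdk inhibitory kinase gene mik1 rose from 16.7 to 218 RPKM. The kinase gene cdc2 itself read 53.2 RPKM in mitosis and 77.1 RPKM at 6 h, and the growth-phase cyclin gene cig1 read 28.3 and 7.70 RPKM, neither of them called.

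The anaphase-promoting complex, the ubiquitin ligase that destroys cyclin and securin, rose as a whole. All 13 of its core subunit genes were higher, against 9.33% of all genes, and all 13 stayed higher after rescaling. Their median change was 3.16, with a range of 2.14 to 3.95. Their levels ran from 5.50 to 41.9 RPKM in mitosis and from 50.3 to 407 RPKM at 6 h, a range across genes and not a spread of either stage. The largest change was that of the small subunit gene apc14, from 24.2 to 388 RPKM, and the tetratricopeptide subunit gene nuc2 went from 21.6 to 228 RPKM. The activator gene slp1 rose from 63.6 to 434 RPKM, and the meiotic activator gene mfr1, which acts at the end of the second division, from 0.457 to 452 RPKM. A further gene, SPAC13G6.08, annotated as the meiotic activator Fzr2 and chosen here after its values were seen, went from 3.95 to 606 RPKM. The gene of the meiotic inhibitor Mes1, which keeps the complex in check between the divisions, rose from 14.6 to 549 RPKM. Securin, encoded by cut2, rose from 23.7 to 257 RPKM.

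Of the spindle checkpoint, which restrains the same complex, none of 6 genes was called, with a median change of -0.55 and a range of -0.86 to 1.51. Its members read 14.9 to 26.2 RPKM in mitosis and 8.75 to 69.0 RPKM at 6 h. The separase gene cut1 had a change of 1.25, and the growth-phase activator gene srw1 read 7.25 and 6.63 RPKM. Over the whole list of 25 genes of the complex, checkpoint and separase, 17 rose and 0 fell.

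Chromosome cohesion and the spindle moved in fewer genes. Of 21 cohesin, shugoshin and centromere genes 3 rose (14.3%, against 9.33% of all genes) and 1 fell (4.76%, against 8.51%). After rescaling 4 rose and 0 fell. The meiotic cohesin genes rec8 (2.67 to 16.7 RPKM) and rec11 (1.98 to 20.2 RPKM) rose, but the course shows them far higher before, with rec8 at 222 RPKM at 0 h and 248 RPKM at 3 h. The gene of the shugoshin Sgo1, which protects centromeric cohesin in the first division, rose from 16.1 to 104 RPKM. The monopolar attachment factor gene moa1 was listed at 0 in mitosis and read 4.37 RPKM at 6 h, under the 5 RPKM limit. The centromere protein gene cnp3 fell from 69.1 to 15.3 RPKM, and not after rescaling. The mitotic cohesin gene rad21 read 27.6 and 6.74 RPKM, just short of a call. Of 21 spindle genes only the kinesin gene klp5 rose (4.76%, under the 9.33% of all genes), from 30.9 to 191 RPKM. Its partner klp6 (19.9 and 81.3 RPKM) was called higher after rescaling. The tubulin genes nda2 (316 and 328 RPKM) and nda3 (446 and 347 RPKM) moved little.

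The forespore membrane is a new double membrane that grows from the spindle poles around each nucleus. Of 15 genes of this structure 10 rose and 0 fell, with a median of 4.53. The leading-edge gene meu14 went from 4.29 RPKM to 2225 RPKM, a change of 8.72. The septin genes spn5 (2.57 to 1701 RPKM), spn6 (1031 RPKM at 6 h) and spn7 (7.27 to 670.2 RPKM) rose by 8.90, 8.89 and 6.34. The spindle pole genes spo13 (1.86 to 529 RPKM) and spo2 (19.8 to 346 RPKM) rose, while the anchor gene spo15 read 20.2 and 28.8 RPKM. The vesicle fusion genes split. The SNARE gene sec9 rose from 67.9 to 510.2 RPKM, and its partner psy1, at 122 and 318 RPKM, was not called. The general secretion genes spo14 and spo20, named for their mutants but used in growth, read 44.3 and 17.6 RPKM, and 178 and 159 RPKM.

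Spore wall genes held the largest changes. Of 16 genes 11 rose and 0 fell, with a median of 5.50 and a summed level of 422 RPKM in mitosis against 109707 RPKM at 6 h, most of it isp3. The glucosidase gene meu17 went from 4.66 to 8844 RPKM, a change of 10.61, the largest of any gene named here. The glucan-elongating gene gas4 went from 53.5 to 7767 RPKM. The glucan synthase genes that rose were mok14 (12.3 to 1944 RPKM), bgs2 (6.75 to 228 RPKM) and mok13 (7.14 to 84.1 RPKM), and mok12 read 3.67 and 8.01 RPKM with no call. The GPI-anchored wall gene meu10 went from 5.48 to 3543 RPKM. The glucanase genes that open the ascus at the end, agn2 (33.4 to 3444 RPKM) and eng2 (32.7 to 1968 RPKM), had risen by 6 h. Chitin synthase gene chs1 (9.63 and 34.7 RPKM) and chitin deacetylase gene cda1 (22.3 and 20.3 RPKM) were not called.

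Genes of the vegetative septum moved the other way in part. Of 23 genes 4 fell (17.4%, against 8.51% of all genes) and 1 rose (4.35%, against 9.33%), with a median of -0.61. The cell wall gene adg1 went from 197 to 3.87 RPKM, a change of -5.35, the largest fall of all the listed genes. The separation glucanase genes eng1 (89.0 to 10.4 RPKM) and agn1 (83.6 to 10.8 RPKM) fell, as did adg3 (54.7 to 9.97 RPKM). The related gene adg2 rose from 174 to 721 RPKM. Genes of the contractile ring were not called, among them the tropomyosin gene cdc8 (405 and 214 RPKM), the myosin gene myo2 (13.7 and 8.60 RPKM) and the formin gene cdc12 (15.1 and 14.2 RPKM).

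Related genes with a growth and a meiotic member were set side by side in 16 families of 48 genes, using RPKM, which is per length. Of the 20 meiotic members 19 rose and 0 fell, and mok12 was the exception. Of the 19 vegetative members 0 rose and 4 fell, or 3 after rescaling, when the glucan-elongating gene gas2 (461 and 103 RPKM) dropped out. Of 8 members used in both 3 rose, which were slp1, cdc13 and the septin gene spn2 (72.6 to 1702 RPKM). The families were written with the meiotic members known as such, so the direction follows what those genes are known for.

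The share of each family's summed RPKM that its meiotic members held was also taken, among the genes listed. Such a share rises with the meiotic member even where the growth member does not fall, so it does not show a replacement. For the Cdc7-type kinases Hsk1 and Spo4 the meiotic share went from 2.47% to 96.0%, although hsk1 itself read 29.5 and 60.2 RPKM. For the septins it went from 4.66% to 65.6%. Spn2 rose with the meiotic septins while its growth partners spn1 (40.3 and 19.9 RPKM), spn3 (55.5 and 32.1 RPKM) and spn4 (57.1 and 26.9 RPKM) stayed uncalled. For the alpha-glucanases Agn1 and Agn2 the share went from 28.6% to 99.7%, and for the beta-glucanases Eng1 and Eng2 from 26.9% to 99.5%, with a fall of the growth member in both. For 3 activators of the anaphase-promoting complex, slp1, srw1 and mfr1, it went from 0.642% to 50.6%, slp1 holding most of the rest. This family leaves out the gene annotated as the meiotic activator Fzr2, named above, with which the meiotic share would be larger in both libraries. For the cyclins the share reached 31.5% from 1.65%, because cdc13 stayed the highest. The plasma membrane proton pump genes, without a meiotic role in their names, moved in opposite directions to similar levels. The main pump gene pma1 fell from 833 to 121 RPKM and pma2 rose from 0.432 to 142 RPKM, a closely related pair whose reads could have been split in counting.

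**Figure D4:**
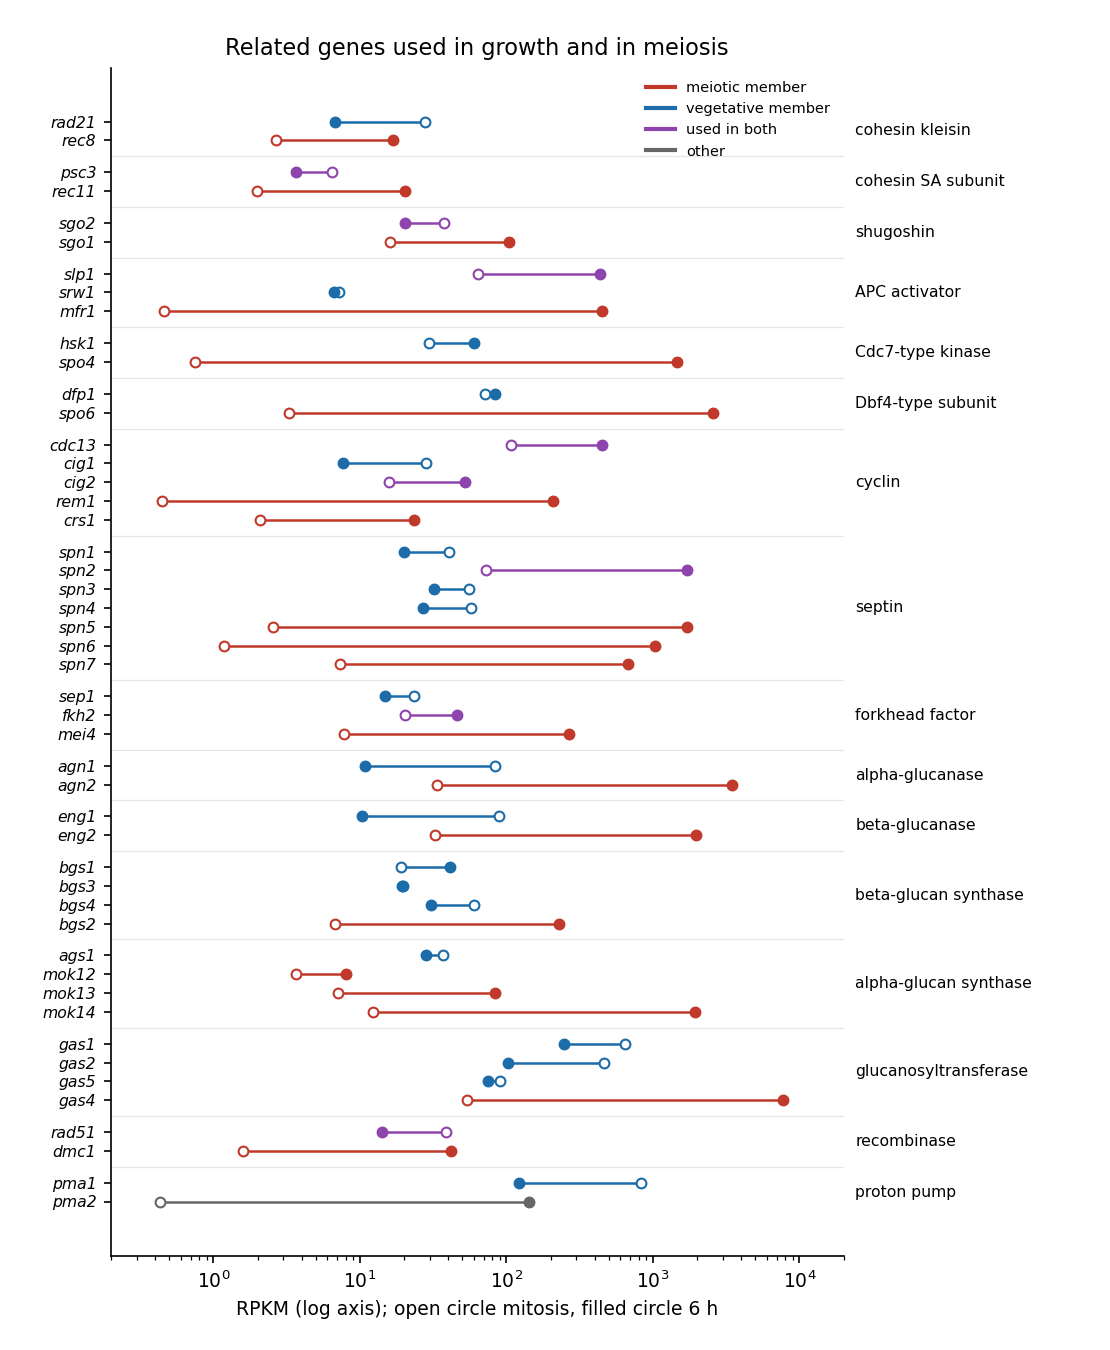
RPKM (log axis) in mitosis (open circle) and at 6 h (filled circle) of 48 genes in 16 families, coloured by use in growth, meiosis or both. Of the 20 meiotic members (red) 19 rose, and of the 19 vegetative members (blue) 4 fell and 0 rose.

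Genes of recombination, which precedes the divisions, lay above growing cells in part. Of 19 recombination genes 10 rose and 0 fell against mitosis, with a median of 2.03. The rises were modest in level except for mde2, which links replication to break formation and went from 0.288 to 297 RPKM. The recombinase gene dmc1 rose by 4.04 to 41.8 RPKM and the linear element gene rec27 from 0.759 to 23.1 RPKM. The break-forming gene rec12 read 7.67 RPKM in mitosis and 10.1 RPKM at 6 h, and 107 RPKM at 3 h. Of 15 genes of the telomere bouquet and horsetail movement 5 rose, or 8 after rescaling, led by bqt2 (0.135 to 13.3 RPKM) and the dynein anchor gene mcp5 (2.12 to 17.1 RPKM). Of 21 targets of the S phase factor MBF 4 fell (19%, against 8.51% of all genes) and 1 rose, with a median of -1.22. Among the falls were dut1, for nucleotide clean-up (137 to 15.9 RPKM), and the replication licensing gene cdt1 (30.0 to 6.62 RPKM). After rescaling 2 of the falls remained, and the median was -1.01, against -0.02 for all genes. Of 11 histone genes 3 fell, hhf3 (604 to 101 RPKM), hta1 (326 to 63.0 RPKM) and hhf1 (693 to 161 RPKM, not after rescaling), while hht2 (997 and 1137 RPKM) and hhf2 (362 and 387 RPKM) were not called. The hht and hhf genes are near-identical copies, so their reads may have been shared out in counting.

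Genes of ribosomal proteins, the longest list, made up more falls than any other list. Of 141 of them 59 were lower (41.8%, against 8.51% of all genes) and 0 higher, with 43 lower after rescaling. The median change was -1.90, against -0.23 for all genes. The count depends on the hour, with 7 lower at 5 h in place of 6 h and 76 lower at 7 h, and a median change of -1.37 at 5 h. Every listed gene had a negative change, from -3.58 to -0.52, and the median level went from 2629.7 to 727 RPKM. The largest falls were those of rpp203, from 1319.7 to 109.6 RPKM, and rpl2301, from 2187 to 227 RPKM. Many of these genes have near-identical copies, and the split of reads between copies is uncertain. Of 33 ribosome biogenesis genes 20 fell (60.6%, a larger share) and 0 rose, with a median of -2.29. After rescaling 17 fell, and with 5 h in place of 6 h 12 fell. The helicase gene dbp3 went from 227 to 9.17 RPKM, a change of -4.49. The nucleolar protein gene gar2 went from 949.7 to 53.4 RPKM and the fibrillarin gene fib1 from 643 to 48.5 RPKM. The assembly GTPase gene nog1, whose promoter is shown above, went from 329 to 31.2 RPKM. Outside the 33 lists the largest fall was that of rrb1, whose budding yeast relative chaperones a ribosomal protein, from 145 to 3.36 RPKM.

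Of 20 subunit genes of RNA polymerases I and III, a list added after the values were seen, 10 fell (10 after rescaling) and 0 rose, led by ker1 (123 to 7.37 RPKM) and rpc40 (240 to 18.5 RPKM). Of 25 translation factor genes 3 fell (12%, against 8.51% of all genes) and 0 rose, with a median of -1.31, and after rescaling 2 fell. The largest fall was that of tif51, encoding eIF5A, from 2189 to 252 RPKM. The elongation factor gene tef103 kept 4037 RPKM at 6 h against 4449.5 RPKM in mitosis, a place among the 10 highest genes of 6 h. Of 41 splicing genes 4 fell (9.76%, near the 8.51% of all genes) and 0 rose, and 2 of the falls remained after rescaling. The furthest was prp43, a helicase also used in ribosome assembly, at 91.6 and 5.35 RPKM. The 20 proteasome genes had a median change of 0.29, with no call except rpn1302 after rescaling.

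**Figure D5:**
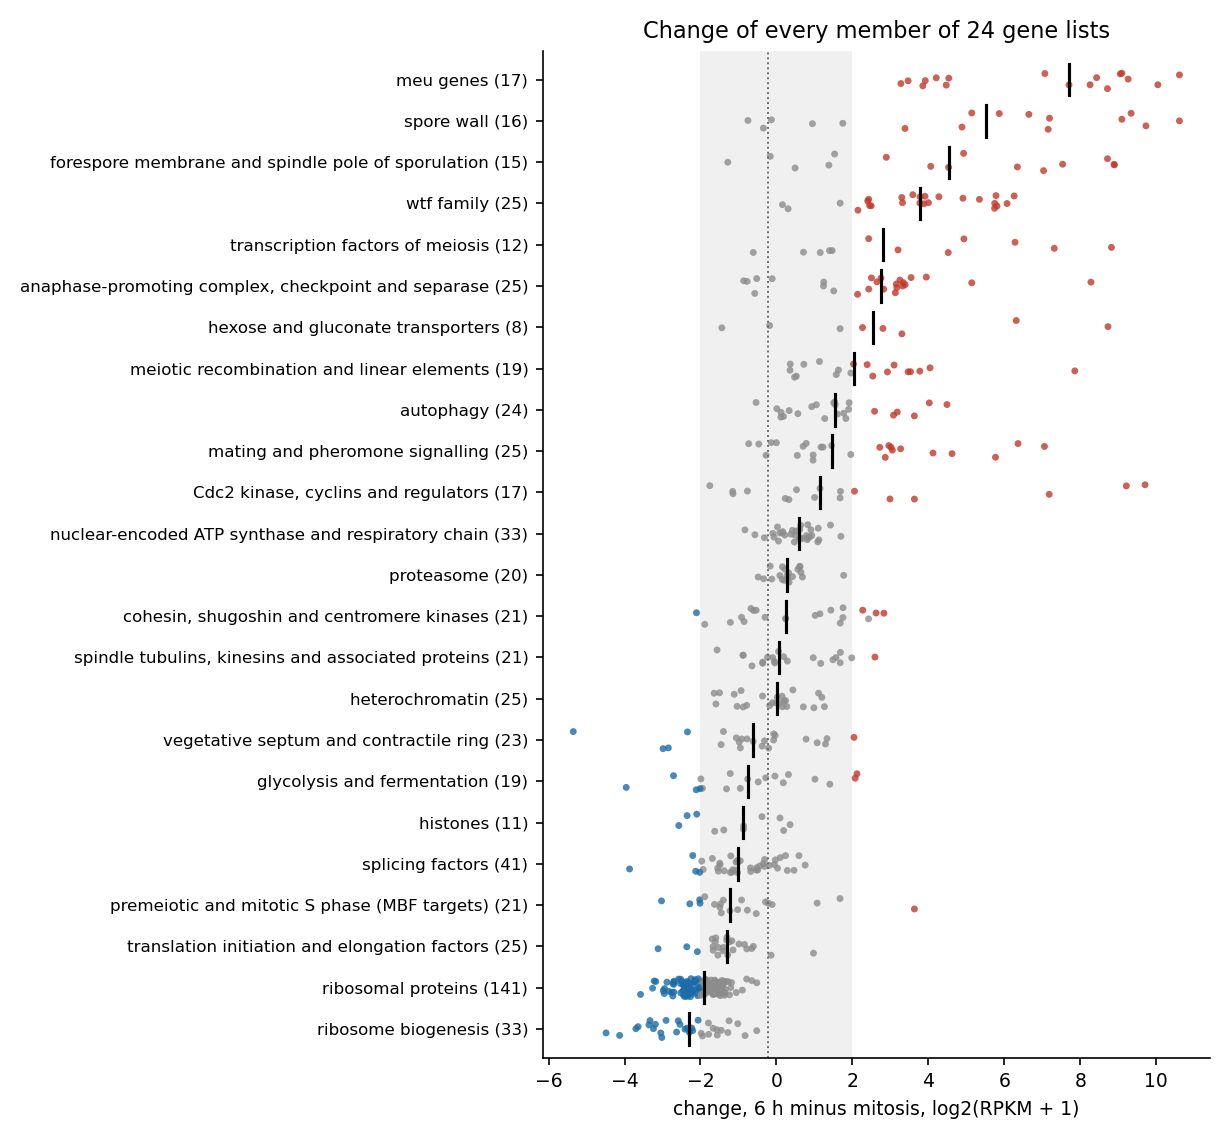
Change of every member of 24 gene lists (horizontal axis, log2(RPKM + 1), 6 h minus mitosis), with higher genes in red, lower genes in blue, uncalled genes in grey and the list median as a black bar. The shaded band is the range within 4-fold and the dotted line the median of all genes, -0.23; the grey point outside the band is moa1, under 5 RPKM in both libraries. Meu and spore wall genes lie furthest to the right and the ribosome lists furthest to the left.

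Genes of sugar metabolism moved in both directions. Of 19 genes of glycolysis and fermentation 4 fell (21.1%, against 8.51% of all genes) and 2 rose (10.5%, near the 9.33% of all). The main pyruvate decarboxylase gene pdc101 fell from 2626 to 400.4 RPKM and the alcohol dehydrogenase gene adh4 from 117 to 6.64 RPKM. The minor decarboxylase genes pdc201 (9.58 to 45.0 RPKM) and pdc202 (6.62 to 31.1 RPKM) rose. The falls of pyk1 and gpm1 were lost after rescaling. The fructose bisphosphatase gene fbp1, of gluconeogenesis, rose from 5.66 to 964 RPKM. Of 8 hexose transporter genes 5 rose and 0 fell, led by ght6 (7.53 to 3618 RPKM) and ght3 (2.65 to 289 RPKM), while the growth transporter ght5 read 98.9 and 318 RPKM. The 33 nuclear genes of the respiratory chain and ATP synthase had a median change of 0.60 with none called, a median level of 215 RPKM in mitosis and 332 RPKM at 6 h.

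The lists of purine and amino acid synthesis genes were added after the values were seen, so their counts are a description. Of 10 purine synthesis genes 6 fell (5 after rescaling) and 0 rose, with ade4, of the first step of the pathway, at 305 and 27.0 RPKM and ade8 at 124 and 9.39 RPKM. The strain carries mutant ade6 alleles in both libraries, and ade6 itself read 117 and 60.9 RPKM. Of 41 amino acid synthesis genes 19 fell and 0 rose, after rescaling 13 fell and 1 rose, and with 5 h in place of 6 h 4 fell. The furthest was met14 at 469.7 and 40.1 RPKM. Of 13 genes listed as amino acid and peptide transporters 3 fell (23.1%, against 8.51% of all genes) and 1 rose (7.69%, against 9.33%). After rescaling 3 fell and 2 rose, with isp5 (4.44 and 18.6 RPKM) added. One of the falls, vht1, encodes a transporter of the vitamin biotin and not of amino acids. The cationic amino acid transporter gene cat1 went from 34.2 to 4.31 RPKM and vht1 from 435 to 29.1 RPKM, while meu22 rose by 4.47 from 0.804 RPKM. The arginase gene aru1 and the malate dehydrogenase gene mae2 were among the largest falls outside the 33 lists, from 668 to 37.6 RPKM and from 1129 to 83.9 RPKM.

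Genes of autophagy, which recycles cell contents in starved cells, lay above growing cells in part. Of 24 genes 6 rose (10 after rescaling) and 0 fell, with a median of 1.54. The gene of the membrane tag Atg8 went from 41.3 to 949 RPKM and that of the vacuolar permease Atg22 from 12.7 to 222 RPKM, and the starting kinase gene atg1 had a change of -0.54. Of 15 nitrogen starvation genes 2 rose (13.3%, against 9.33% of all genes), atg8 and the vacuolar protease gene isp6 (54.4 to 676 RPKM). After rescaling 4 rose, with the ammonium transporter gene amt3 (2.02 and 9.82 RPKM) and isp5 added, and the list median was -0.08 as deposited and 0.14 after rescaling. Of 18 stress response genes 4 rose (22.2%, against 9.33% of all genes), or 6 after rescaling. The 4 were zym1 (61.8 to 10334 RPKM), the ion pump gene cta3 (0.535 to 48.4 RPKM), the phosphatase gene pyp2 and the trehalose synthase gene tps1 (115 to 842 RPKM). The heat shock gene hsp104 read 69.0 and 53.0 RPKM. Of 20 genes listed as chaperones 2 fell (10%, near the 8.51% of all genes) and 0 rose. After rescaling 1 fell and 2 rose, hsp16 (28.2 and 108.6 RPKM) and ssa1 (76.5 and 264 RPKM). One of the falls, ssb2 (33.4 to 5.46 RPKM), is annotated as a single-stranded DNA-binding protein and is no chaperone. The other was the mitochondrial chaperone gene ssc1 (812 to 199.7 RPKM), not lower after rescaling. Of 18 copper, iron and phosphate genes 1 rose and 1 fell (5.56% each, below the 9.33% and 8.51% of all genes). The iron transporter gene str2, which lies opposite the ribosomal gene rpl6, rose from 5.87 to 62.7 RPKM. The copper transporter gene ctr5 fell with a change of -2.09, and not after rescaling.

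Mating genes lay above growing cells in part. Of 25 genes 11 rose and 0 fell. The pheromone genes mfm1 (6.52 to 617 RPKM) and mfm3 (3.80 to 637 RPKM), of minus cells, and map2 (2.56 to 193 RPKM), of plus cells, rose together in this h-/h- strain with the added mating type gene. At 0 h mfm1 read 9074 RPKM and map2 3503 RPKM. The receptor genes mam2 and map3, of minus and plus cells, read 4.46 and 133 RPKM, and 12.7 and 30.0 RPKM, the latter without a call.

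Heterochromatin genes, the subject of the study's chromatin maps, were not called in either direction. Over 25 genes the median change was 0.02, with a range of -1.64 to 1.26. The methyltransferase gene clr4 read 6.79 RPKM in mitosis and 8.19 RPKM at 6 h. The gene of the HP1 protein Swi6 read 85.8 and 27.8 RPKM, the anti-silencing gene epe1 10.3 and 4.21 RPKM, and the dicer gene dcr1 5.43 and 6.15 RPKM. Of 13 factors of the elimination of meiotic transcripts in growing cells 1 rose and 1 fell. Each is 7.69% of the list, near the 9.33% and 8.51% of all genes. The gene that rose was mei2, which blocks that system, and pab2 fell from 113 to 25.4 RPKM, but not after rescaling. The gene of the elimination factor Mmi1 itself read 27.8 and 11.7 RPKM. The 13 Tf2 retrotransposons, near-identical copies whose reads cannot be assigned safely, were not called, with a median change of -0.00 and levels of 4.09 to 11.3 RPKM in mitosis and 4.22 to 11.7 RPKM at 6 h.

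Clr4 lies opposite a gene that rose far. The gene meu6, of a pleckstrin homology protein, runs on the other strand over 2393 bases, 54.2% of clr4 in the reference annotation, and went from 7.74 to 4646 RPKM. Clr4 read 8.19 RPKM at that hour, so the reads of meu6 were not counted for clr4. The same held for spo6 (2549 RPKM at 6 h) and its opposite gene lam2 (30.3 and 19.0 RPKM), for mfr1 and tfg2 (32.0 and 23.9 RPKM), and for spn6 and dcr1. In all, 25 gene pairs on opposite strands had a member that rose to 100 RPKM or more and that covered 50% or more of the other. The rising members had a median of 7.74 RPKM in mitosis and 309.6 RPKM at 6 h. Their partners had 21.5 and 15.9 RPKM, with a median change of -0.37, and 1 partner was higher and 1 lower. Of 198 genes covered whole by a gene of the other strand, 2 were listed at 0 at 6 h, and their median was 37.6 RPKM, so such genes were not left without reads. Genes with an overlap on the opposite strand made up 34.9% of the higher genes, 28.2% of the lower genes and 37.0% of all.

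Genes named for a rise in meiosis, and the wtf family, were higher in most members. All 17 meu genes, found as meiotic upregulated transcripts, were higher, with a median of 7.70, and of 105 mug genes 70 rose and 1 fell, with a median of 2.89. Both sets were named because they rise in meiosis, so their direction is no new evidence. Among them meu7 went from 10.8 to 12445 RPKM, mug137 from 2.52 to 2141 RPKM and the kinase gene mug27 from 0.321 to 364 RPKM. Many wtf genes encode a poison and its antidote and kill the spores that lack them. Of 25 wtf genes 22 rose and 0 fell, with a median of 3.78. The highest at 6 h were wtf19 (10.7 to 639.6 RPKM) and wtf4 (6.08 to 541 RPKM), and wtf1, wtf14 and wtf15 were not called. These genes are members of 1 family, how alike their sequences are was not measured here, and the level of each is uncertain.

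The largest rises outside the 33 lists were named by size. The poly(A)-binding protein gene crp79 went from 1.33 to 813 RPKM, the RNA-binding protein gene mde7 from 0.612 to 273 RPKM, the PUF protein gene mpf1 from 2.17 to 489 RPKM and the poly(A) polymerase gene cid11 from 0.857 to 257 RPKM. The kinase gene mde3 (0.230 to 167 RPKM), the GTPase gene rho5 (7.10 to 712 RPKM) and the glycerol dehydrogenase gene gld1 (4.08 to 444 RPKM) were others. Crp79 shares 19 bases with mrpl1 on its own strand, a mitochondrial ribosomal gene that read 76.9 and 1246 RPKM, and whether reads were shared between both was not tested. The 12 largest falls outside the 33 lists include the ribosomal export gene arx1 (168 to 10.1 RPKM) and the ribosome assembly gene rpf2 (184 to 13.8 RPKM). Of the same 12, ker1, rpc40, ade8 and met14 stand on the 3 lists that were added later.

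The higher genes did not all peak at 6 h. Their median was 8.34 RPKM in mitosis, 39.4 RPKM at 0 h, 132 RPKM at 6 h and finally 91.2 RPKM. Of the 481, 184 had their highest value at 6 h. The highest value fell at 8 h in 113, at 7 h in 54, at 5 h in 34 and at 0 h in 38. Of the 439 lower genes 360 were highest in mitosis, and their median went from 143 RPKM in mitosis to 61.7 RPKM at 0 h and 21.5 RPKM at 6 h. Both sets were chosen on mitosis and 6 h, which fixes the order of these libraries, and the values of the other hours are those left free. Higher genes lay on all 3 chromosomes, 9.50% of the genes of I, 8.73% of II and 10.3% of III. Of the neighbours of higher genes 13.2% were higher too, against 9.33% of all genes, and of the neighbours of lower genes 10.5% were lower.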

How the data were processed

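Total RNA was measured in 1 library of growing cells and 1 library of meiosis at 6 h. Per the labels' protocols, RNA was extracted with a MasterPure kit and libraries were made with a TruSeq Stranded Total RNA kit. The authors deposited RPKM values for 5157 genes in 10 libraries of the course, per the file headers. Beside them stand columns named TPM, treated here as a score, since the deposited values follow a repeating pattern of 10 rows, and no comparison rests on them. Named in the submitters' processing notes are STAR 2.7.3a, Bowtie 1.2.2, SAMtools 1.9, bedtools 2.26.0 and 2.27.1, cutadapt 1.18 and bcl2fastq 1.17, and the build ASM294v2, with no role in the RNA data given. How reads were counted, on which annotation, with or without strand and with which rule for repeats, is not stated in the labels.

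The log2(RPKM + 1) scale makes changes of low genes look smaller. A call needed 4-fold and 5 RPKM in either library, with no test. Genes were matched to the RefSeq annotation of ASM294v3, another build than the authors', by symbol (3635), systematic ID (1392) or synonym (98), and 32 did not match. Promoters, overlaps and neighbours come from that assembly alone, and the table itself holds no coordinates. Depth was estimated from the steps of low values and from the ratio of both kinds of deposited column. The size rule and the depth estimate were tested on simulated data, and the other counts were not.

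The members and the 33 lists were chosen with earlier results of these data known, and 3 lists were added after the values were seen. After the values were seen, 4 genes that are no ribosomal protein genes, 3 that are no amino acid synthesis genes and a gene that was placed wrongly among the spore wall genes were taken off their lists. Some lists share genes. Named genes are, of each list, the 6 members with the largest change, all members of the families, the 12 largest rises and falls outside the lists, the 10 highest genes of both libraries and a few set genes, and further list members were named after their values were seen. The study's other 134 samples were not analysed here, and a gene of the septum list and a sequence element are not reported here. Alternatives were other scalings, pseudocounts of 0.1 and 5, no filter or 20 RPKM, 5 h or 7 h in place of 6 h and protein-coding genes only. A size of 2-fold and leaving out opposite-strand overlaps were added after seeing the data. The calculations used matplotlib 3.10.9, SciPy 1.17.1, NumPy 2.4.6, pandas 2.3.3 and Python 3.11.15.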

Additional observations from a re-analysis of the deposited data

How the results depend on the processing

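No paired analysis was possible because each stage has 1 library and no test was run. The count of higher genes lay between 383 and 629 under the other scalings, pseudocounts, filters and hours, and that of lower genes, 439 as reported, fell to 262 when both libraries were scaled to each other and to 181 with 5 h in place of 6 h, and was 393 with 7 h. At 2-fold 1029 genes were higher and 1401 lower, and without genes that overlap another on the opposite strand 314 were higher, a setting that tests fewer genes. List medians near 0 changed sign. Nitrogen starvation went to 0.14 (rescaled over the 10 libraries), 0.23 (scaled to each other) and 0.46 (5 h), the Tf2 elements to 0.21, 0.29 and 0.13, and the copper, iron and phosphate list to 0.0718 (scaled to each other) and 0.12 (5 h). With 7 h the spindle list went to -0.28 and the heterochromatin list to -0.27. The cause was not tested. Other list medians kept their sign under the alternatives run, and no named gene with a call changed direction. With 1 library a side the spread between cultures is unknown, and only counting error could be given.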

Other observations

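The columns named TPM differed from the RPKM columns in a way set by the place of a gene in the file. Within each run of 10 rows the ratio of both columns took the same 10 values. The median log2 ratio of 6 h over mitosis lay between -0.42 and -0.22 over the 10 places in RPKM, and between -1.29 and -0.33 in the columns named TPM, so a comparison made in those columns would depend on the row.

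Genes without a symbol, known by a systematic ID, made up 27.3% of the table, 23.1% of the higher genes (111) and 21.0% of the lower genes (92). An intron was annotated in 49.5% of the higher genes, 42.1% of the lower genes and 48.3% of all. The median exonic length was 1665 bases in the higher genes, 1412 in the lower genes and 1675 in all.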
